A study of Mus musculus with 6 samples.

Results

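The genes of cholesterol synthesis and sterol regulation were read in interscapular brown adipose tissue (iBAT), the heat-producing fat pad between the shoulder blades of mice. The members were chosen by name: 18 enzymes that lead to cholesterol, Ggps1 on the isoprenoid branch, 4 genes of SREBP control, 4 of sterol transport and storage inside the cell, and 4 of sterol export and its nuclear receptors. All 31 were found among 55703 genes, and 30 passed the filter on low values that left 13507 genes for testing. Fdps did not pass. The study asked what the loss of WTAP, a partner of the enzyme complex that writes m6A on RNA, does to brown fat. It sequenced RNA of whole iBAT from C57BL/6 mice aged 8 weeks, in 3 Wtap-BKO and 3 Wtap flox/flox libraries. Wtap-BKO mice carried floxed alleles of Wtap and Ucp1-iCre+/-, a Cre recombinase read from the Ucp1 gene through an inserted IRES and so made in cells that use Ucp1. Wtap flox/flox mice carried the same floxed alleles without the Cre. Both groups were of the same strain and age, and the floxed segment is exon 4 of Wtap.

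Cells build cholesterol from acetyl-CoA through mevalonate, isoprenoid diphosphates, squalene and lanosterol. When sterols in the endoplasmic reticulum are low, SCAP carries the precursor of the transcription factor SREBP2 to the Golgi for cleavage, and the released factor turns on the enzymes of the pathway, while INSIG proteins hold the precursor back when sterols are high. Oxysterols activate the LXR nuclear receptors, which turn on export pumps such as ABCA1. Brown adipocytes make and store much lipid, and macrophages of fat handle the sterols of dying cells, so whole tissue holds more than 1 cell type that uses these genes.

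The libraries held 15979694 to 19005123 recovered reads, a similar depth for all. Levels are given in FPKM, here fragments scaled by gene length and by a scaling factor of each library. Wtap itself, the targeted gene, read 11.8, 12.3 and 12.7 FPKM in the libraries labelled Wtap-BKO. It read 8.00, 8.63 and 8.16 FPKM in the Wtap flox/flox libraries. This whole-gene value was higher where exon 4 should be missing, and it does not resolve that exon, so it does not check the labels. Ucp1, the uncoupling protein of brown fat and the gene that carries the Cre, read 293, 495 and 287 FPKM in Wtap-BKO, against 1650, 2072 and 1586 FPKM in Wtap flox/flox libraries. The groups did not overlap, with a log2 change of -2.34 ± 0.24 (adjusted p = 0.00495, limma), and the call held in all 6 fits that left out 1 library. Skeletal muscle markers stood apart in Wtap-BKO replicate 3 and Wtap flox/flox replicate 2, where 13 markers summed to 1534 and 941 FPKM, against 31.7 to 47.9 FPKM in the other 4 libraries. Brown adipocyte markers, the check of the labelled tissue, were present in every library. They summed to 3459 to 4739 FPKM in Wtap-BKO and 6452 to 8653 FPKM in Wtap flox/flox libraries. The 10 markers did not all move with the sum: 8 had a change below 0 and 2 above. Of them 2 were called lower, beside 3.88% of all tested genes. The markers above 0 were Prdm16 and Elovl3, with log2 changes of 0.49 and 3.27 and no overlap (adjusted p = 0.13 and 0.0516, limma). Macrophage markers summed to 406, 278 and 355 FPKM in Wtap-BKO libraries, against 174, 194 and 262 FPKM in Wtap flox/flox libraries. In bulk tissue, fewer cells of a type and less RNA per cell cannot be told apart.

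Promoter sequences of 3 members are shown because these genes mark the contrast described further on: Insig1 and Nsdhl had their highest value by far in Wtap-BKO replicate 2, and Hmgcs1 did not. The windows run from 250 bases before to 50 bases after the RefSeq start site on GRCm38.p6, at chr5:28071162-28071461 (plus strand) for Insig1, chrX:72918271-72918570 (plus strand) for Nsdhl and chr13:119690101-119690400 (plus strand) for Hmgcs1. Capitals mark 3 motifs searched on both strands: the sterol regulatory element TCACNCCAC, to which SREBPs bind, the NF-Y box CCAAT and the Sp1 box GGGCGG, whose factors are known partners of SREBPs.
Insig1: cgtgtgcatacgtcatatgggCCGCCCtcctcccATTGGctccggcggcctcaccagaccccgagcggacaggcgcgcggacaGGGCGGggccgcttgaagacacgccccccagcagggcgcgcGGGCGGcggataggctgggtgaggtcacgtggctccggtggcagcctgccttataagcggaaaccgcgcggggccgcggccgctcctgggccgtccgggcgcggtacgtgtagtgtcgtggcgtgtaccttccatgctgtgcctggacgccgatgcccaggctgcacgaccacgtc
Nsdhl: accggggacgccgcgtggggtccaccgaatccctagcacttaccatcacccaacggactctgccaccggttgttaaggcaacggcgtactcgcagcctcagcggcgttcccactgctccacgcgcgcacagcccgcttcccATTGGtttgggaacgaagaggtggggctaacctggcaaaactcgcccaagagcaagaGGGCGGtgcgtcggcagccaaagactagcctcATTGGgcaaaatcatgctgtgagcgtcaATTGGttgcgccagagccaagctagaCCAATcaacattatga
Hmgcs1: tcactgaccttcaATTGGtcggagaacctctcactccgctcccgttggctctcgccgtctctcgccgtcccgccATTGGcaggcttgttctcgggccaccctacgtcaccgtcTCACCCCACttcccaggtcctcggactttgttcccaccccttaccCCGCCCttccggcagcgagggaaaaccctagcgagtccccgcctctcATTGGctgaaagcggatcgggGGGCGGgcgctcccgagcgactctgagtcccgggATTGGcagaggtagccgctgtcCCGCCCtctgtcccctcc

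The Hmgcs1 window held a sterol regulatory element that begins at base -137 from the start site, with 4 NF-Y boxes and 3 Sp1 boxes. The Nsdhl window held 4 NF-Y boxes and 1 Sp1 box, and the Insig1 window 1 NF-Y box and 3 Sp1 boxes. RefSeq windows were matched for 25 of the 31 members, 32 windows in all. Of these 25 genes, 20 (80%) had an NF-Y box in a window, against 41.1% of all 27025 genes with a window, and 21 (84%) had an Sp1 box, against 38.2%. The sterol regulatory element in these letters was present in 1 of the 32 member windows (3.13%), that of Hmgcs1, and in 1.24% of all 32851 windows. Fdps, Fdft1, Sqle, Stard4, Npc1 and Abcg1 had no window among those used. The comparison set was every gene with a window, whether or not it is expressed in iBAT, while nearly all members passed the filter on low values. The shares therefore do not separate sterol genes from expressed genes at large. These matches describe letters in a short window and name no bound site.

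Of the 30 tested members, 3 were called by limma at an adjusted p under 0.05. Npc2 and Nr1h3 were higher in Wtap-BKO, Ggps1 was lower, and 27 were not called. Over all tested genes 6.1% were called higher and 3.88% lower, so the members' count is close to that background. The fitted log2 change, Wtap-BKO minus Wtap flox/flox on the log2(FPKM + 0.1) scale, was above 0 for 24 members and below 0 for 6, with a median of 0.30 beside -0.004 over all tested genes. An unadjusted p under 0.05 was reached by 13 members, 10 higher and 3 lower, beside 15.7% of all tested genes higher and 13.2% lower. Every Wtap-BKO library lay above every Wtap flox/flox library for 9 members, beside 18.2% of all tested genes, and below for 4 members, beside 16.9%. Without Wtap-BKO replicate 2 the median was 0.14, with 19 members above 0 and 11 below. Without Wtap-BKO replicate 1 the median was 0.50.

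**Figure D1:**
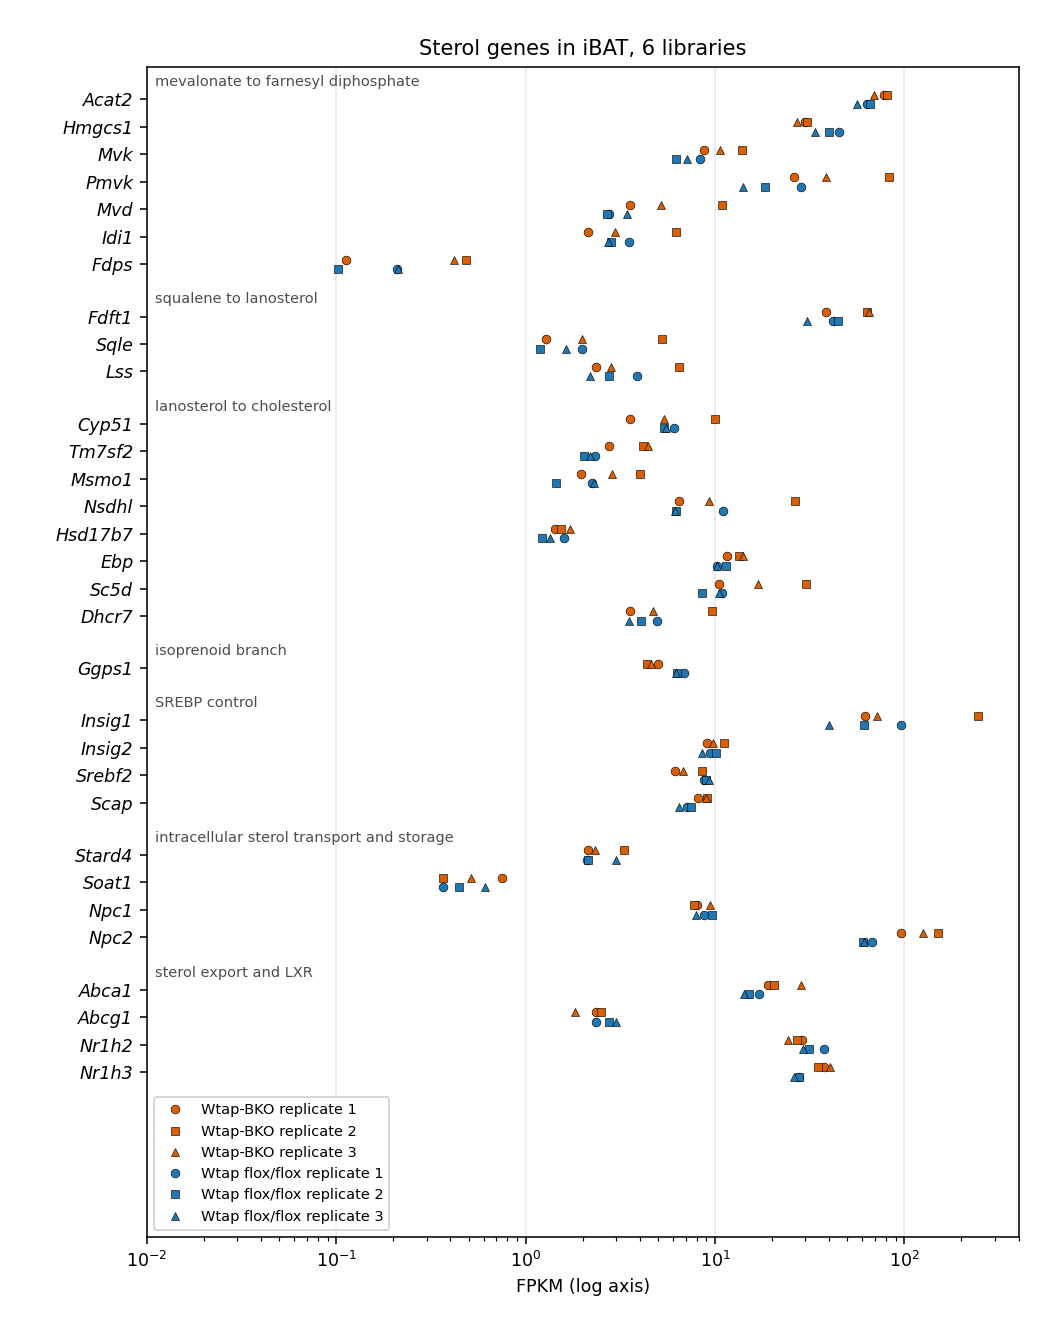
FPKM of the 31 sterol genes in each of the 6 libraries on a log axis, with Wtap-BKO libraries in orange above Wtap flox/flox libraries in blue for each gene and genes grouped by role. Orange squares, Wtap-BKO replicate 2, lie far to the right for Insig1, Nsdhl, Sqle and Pmvk, and Fdps lies below 0.5 FPKM in every library.

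Levels per length spanned a wide range. In Wtap flox/flox libraries the most abundant members were Insig1 (65.8 ± 28.3 FPKM), Npc2 (63.2 ± 3.80 FPKM) and Acat2 (61.7 ± 4.72 FPKM; SD, n = 3 each), and their ranges overlapped in this order. Hmgcs1 followed at 39.6 ± 5.73 FPKM, with no overlap to Acat2, then Fdft1 at 39.0 ± 7.43 FPKM, which overlapped with it. Among the synthesis enzymes that passed the filter, Hsd17b7 was lowest at 1.38 ± 0.191 FPKM. Soat1, which esterifies cholesterol for storage, averaged 0.473 ± 0.123 FPKM. Fdps, the enzyme that makes farnesyl diphosphate, was listed at 0.112, 0.482 and 0.419 FPKM in Wtap-BKO and 0.210, 0.102 and 0.211 FPKM in Wtap flox/flox libraries. Those values rest on 7 to 35 reads a library. Of the bases of its 2 consensus coding transcripts, 76.4% and 81.3% lie in exons of Gm43738, a gene model on the same strand that was listed at 0 in all 6 libraries, and the part of this overlap in the low Fdps level was not tested.

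None of the 6 tested enzymes from acetyl-CoA to the isoprenoid diphosphates was called, 5 with a fitted change above 0 and 1 below. Acat2, the cytosolic thiolase that joins acetyl-CoA units at the head of the pathway, read 77.5, 80.7 and 69.0 FPKM in Wtap-BKO, against 63.3, 65.4 and 56.4 FPKM in Wtap flox/flox libraries. The groups did not overlap, but the log2 change of 0.29 ± 0.11 (SE) did not pass limma's test (adjusted p = 0.126). Of 50-base stretches in Acat2 transcripts, 39.1% also occur elsewhere, most in its neighbour and paralog Acat3, which read 2.0 to 6.22 FPKM in Wtap-BKO and 1.82 to 5.95 FPKM in Wtap flox/flox libraries. Hmgcs1, the synthase that makes HMG-CoA, had a fitted change in the other direction. It read 29.8, 30.5 and 27.0 FPKM in Wtap-BKO, against 45.2, 39.9 and 33.8 FPKM in Wtap flox/flox libraries. All 3 Wtap-BKO values lay below the lowest Wtap flox/flox value, with a log2 change of -0.44 ± 0.13 and an adjusted p of 0.0765 (limma). Hmgcs1 shares 12.1% of its exon bases with the antisense model Gm48342. It was the lone synthesis enzyme with a fitted change below 0, and it stayed below 0 in every alternative fit.

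The later enzymes of that segment were higher on average and scattered. Mvk, mevalonate kinase, read 8.71, 13.8 and 10.6 FPKM in Wtap-BKO, against 8.33, 6.20 and 7.10 FPKM in Wtap flox/flox libraries. Pmvk, phosphomevalonate kinase, read 26.1, 82.7 and 38.3 FPKM in Wtap-BKO, against 28.3, 18.3 and 14 FPKM in Wtap flox/flox libraries. Pmvk had the highest fitted change of all members, 1.17 ± 0.44 on the log2 scale, yet its groups overlapped and its adjusted p was 0.136 (limma). Without Wtap-BKO replicate 2 the change of Pmvk was 0.71, below the 0.79 of Npc2 in that fit. The change of Mvk was 0.59 ± 0.19 (adjusted p = 0.0972, limma) with no overlap. Mvd, which decarboxylates the diphosphate to isopentenyl diphosphate, ranged from 3.56 to 10.9 FPKM in Wtap-BKO and from 2.68 to 3.41 FPKM in Wtap flox/flox libraries. Idi1, the isomerase of that product, had a change of 0.18 that turned to -0.25 without Wtap-BKO replicate 2. Idi1 also shares 25.3% of its 50-base stretches with other genes, Gm13502 first.

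None of the 3 enzymes from farnesyl diphosphate to lanosterol passed the test. Fdft1, squalene synthase, read 38.6, 63.7 and 64.9 FPKM in Wtap-BKO, against 41.7, 44.6 and 30.6 FPKM in Wtap flox/flox libraries. Its change was 0.49 with an adjusted p of 0.224 (limma), and 18.3% of its exon bases lie in Ctsb on the other strand. Sqle, squalene epoxidase, a flux-controlling step of the sterol branch, read 1.28, 5.25 and 1.99 FPKM in Wtap-BKO, against 1.97, 1.18 and 1.63 FPKM in Wtap flox/flox libraries. Only replicate 2 of Wtap-BKO lay clear of the control range by a wide margin, and the Sqle change of 0.58 ± 0.48 (adjusted p = 0.467, limma) was 0.03 without it. Lss, which closes the ring to lanosterol, had a change of 0.28, and of -0.15 without the same library.

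Of the 8 enzymes from lanosterol to cholesterol, all had a fitted change above 0, from 0.03 for Cyp51 to 0.81 for Sc5d, and none was called. Without Wtap-BKO replicate 2, 6 were above 0 and 2 below, Cyp51 at -0.36 and Dhcr7 at -0.02, and the median was 0.21 in place of 0.45. The median was 0.73 without Wtap-BKO replicate 1, and without Wtap flox/flox replicate 2 Cyp51 was below 0 and the other 7 above. Tm7sf2, a sterol reductase of the endoplasmic reticulum, came nearest and is named after its values were seen. It read 2.75, 4.17 and 4.44 FPKM in Wtap-BKO, against 2.33, 2.04 and 2.19 FPKM in Wtap flox/flox libraries. Its groups did not overlap, its log2 change was 0.74 ± 0.20 and its adjusted p was 0.0606 (limma). It passed the test without Wtap-BKO replicate 1 (adjusted p = 0.0186), and 12.1% of its exon bases lie in Vps51 on the same strand.

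Nsdhl, which removes methyl groups at carbon 4 of the sterol ring, read 6.43, 26.3 and 9.30 FPKM in Wtap-BKO, against 11, 6.22 and 6.17 FPKM in Wtap flox/flox libraries. Sc5d, the desaturase of a late step, read 10.5, 30.3 and 16.8 FPKM in Wtap-BKO, against 10.9, 8.55 and 10.5 FPKM in Wtap flox/flox libraries. Both overlapped between the groups. Sc5d passed the test in the fit without Wtap-BKO replicate 1 (adjusted p = 0.0476), and its change of 0.81 was 0.42 (adjusted p = 0.296, limma) without Wtap-BKO replicate 2. Nsdhl had a change of 0.04 without replicate 2. Ebp, the sterol isomerase, was tight in both groups, with 11.5, 13.4 and 14 FPKM in Wtap-BKO, against 10.2, 11.5 and 10.3 FPKM in Wtap flox/flox libraries. Its values did not overlap, by a narrow gap, and its change was 0.28 ± 0.11 (adjusted p = 0.162, limma). Cyp51, Msmo1, Hsd17b7 and Dhcr7 had changes of 0.03, 0.52, 0.17 and 0.39 with adjusted p values of 0.288 to 0.968 (limma).

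**Figure D2:**
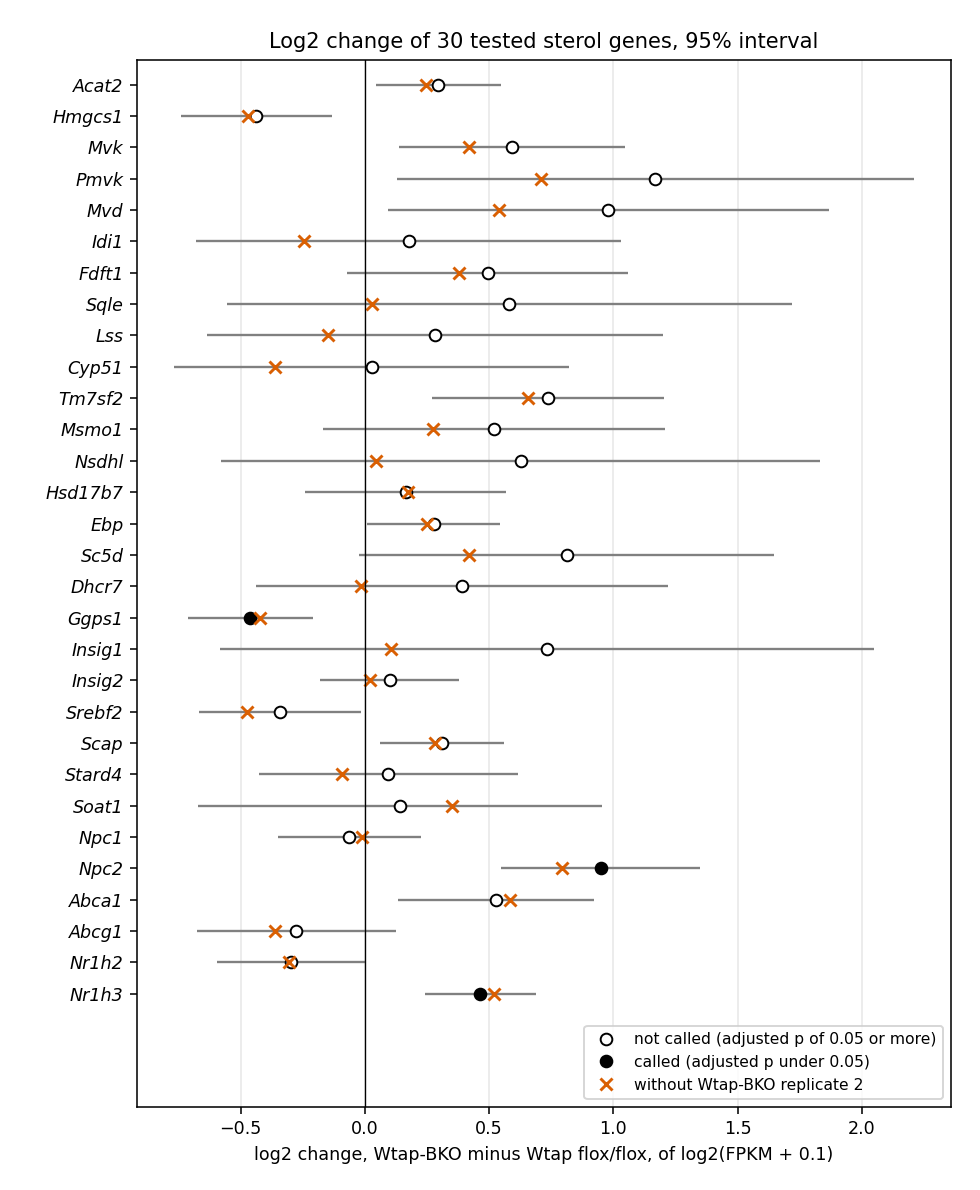
Fitted log2 change of log2(FPKM + 0.1), Wtap-BKO minus Wtap flox/flox, for the 30 tested members, with the 95% interval from limma as a line, filled points for the 3 called genes and orange crosses for the fit without Wtap-BKO replicate 2. Crosses lie well to the left of the points for Insig1, Nsdhl, Sqle and Pmvk and close to them for Hmgcs1, Acat2, Ebp and Nr1h3.

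Among the 17 tested synthesis enzymes as a group, 0 were called, 16 had a change above 0 and the median was 0.49. Their unadjusted p was under 0.05 for 7 genes, 6 higher and 1 lower, beside the same 15.7% and 13.2% of all tested genes, and limma's voom fit of the recovered reads called 0 as well. Within the Wtap-BKO group the libraries did not match each other. The 18 listed enzymes summed to 232, 400 and 282 FPKM in Wtap-BKO replicates 1, 2 and 3, against 248, 224 and 194 FPKM in the Wtap flox/flox libraries. Replicate 1 of Wtap-BKO thus lay inside the Wtap flox/flox range. The group median was 0.25 without Wtap-BKO replicate 2, with 12 enzymes above 0 and 5 below. It was 0.74 without Wtap-BKO replicate 1 and 0.33 without Wtap flox/flox replicate 3.

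Wtap-BKO replicate 2 was the highest of the 6 libraries for 17 of the 30 tested members, 12 of them synthesis enzymes, beside 20.2% of all tested genes. It lay at least 2-fold above each of the other Wtap-BKO libraries for 8 members, namely Pmvk, Mvd, Idi1, Sqle, Lss, Nsdhl, Dhcr7 and Insig1, beside 1.29% of all tested genes. Its excess over the mean of the other pair of Wtap-BKO libraries was 3.66-fold for Insig1, 3.34-fold for Nsdhl and 3.21-fold for Sqle. Several enzymes of the same pathway did not share it, with 1.07-fold for Hmgcs1, 1.10-fold for Acat2, 1.05-fold for Ebp and 0.977-fold for Hsd17b7. The same library was high for the acetyl-CoA makers Acly, ATP citrate lyase, and Acss2, acetyl-CoA synthetase. Acly read 73.8, 601 and 166 FPKM in Wtap-BKO, against 233, 105 and 102 FPKM in Wtap flox/flox libraries. Acss2 read 12, 78.6 and 22.2 FPKM in Wtap-BKO, against 31.8, 15.4 and 12.9 FPKM in Wtap flox/flox libraries.

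Replicate 1 was the high library of the Wtap flox/flox group for both of these genes, and it was the highest of the 3 control libraries for 12 of the 17 synthesis enzymes (70.6%), beside 35.3% of all tested genes. Wtap-BKO replicate 2 had the lowest muscle marker sum of all libraries (31.7 FPKM) and the lowest macrophage marker sum of its group (278 FPKM), its adipocyte marker sum of 4693 FPKM lay among the others at 4402 to 5267 FPKM, and the part of any of these in the pattern was not tested. The labels give no feeding state, date or batch.

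**Figure D3:**
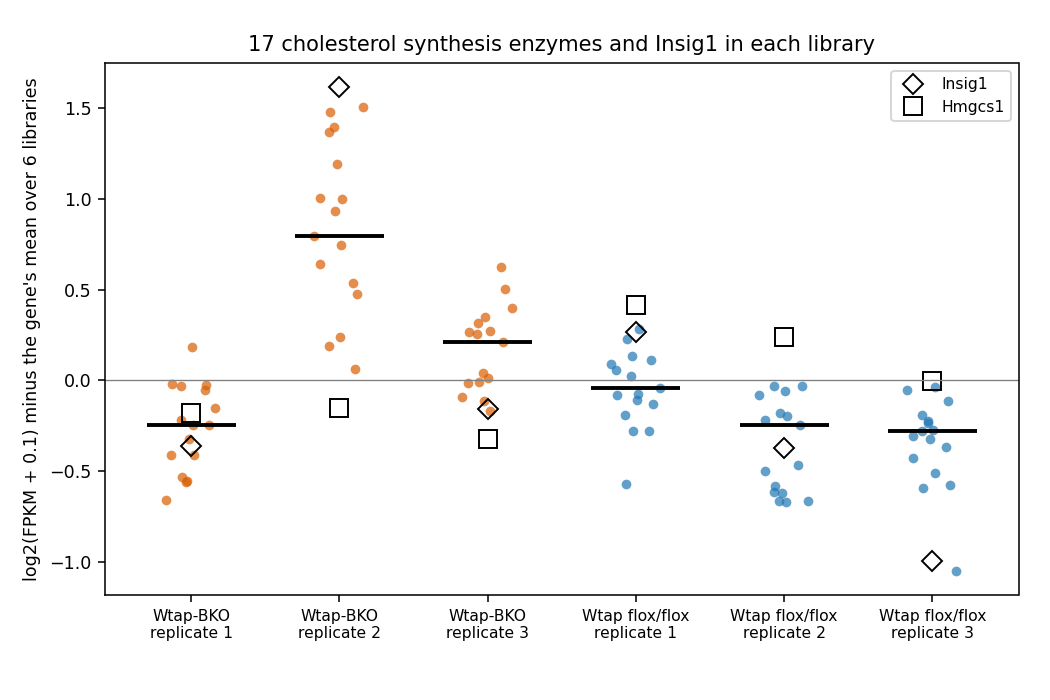
Level of each of the 17 tested synthesis enzymes in each library, as log2(FPKM + 0.1) minus the gene's mean over the 6 libraries, with black bars at the median of the 17 genes, open squares for Hmgcs1 and open diamonds for Insig1. Medians were -0.24, 0.79 and 0.21 in Wtap-BKO replicates 1 to 3 and -0.04, -0.25 and -0.28 in Wtap flox/flox replicates 1 to 3, and Hmgcs1 lies below all the other enzymes in Wtap-BKO replicate 2.

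Ggps1, which extends farnesyl to geranylgeranyl diphosphate, a lipid anchor of small GTPases, was significantly lower. It read 5.0, 4.38 and 4.57 FPKM in Wtap-BKO, against 6.81, 6.31 and 6.19 FPKM in Wtap flox/flox libraries. The 3 Wtap-BKO values all lay below the control range, at 0.722 of the control mean, with a log2 change of -0.46 ± 0.11 and an adjusted p of 0.0407 (limma). The direction held when any library was left out, with changes of -0.51 to -0.42. The call did not: it was lost without Wtap-BKO replicate 2 (adjusted p = 0.0962), Wtap-BKO replicate 3 (0.118) or Wtap flox/flox replicate 1 (0.134), 2 (0.118) or 3 (0.0812).

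SREBP control genes were not called. Insig1, the sterol-sensing retention protein and itself an SREBP target, read 62.0, 244 and 71.4 FPKM in Wtap-BKO, against 96.1, 61.4 and 40.0 FPKM in Wtap flox/flox libraries. The values rest on 1953 to 13056 reads a library. Its change of 0.73 ± 0.56 (adjusted p = 0.431, limma) was 0.11 without Wtap-BKO replicate 2. Insig2, the paralog, ranged from 9.10 to 11.1 FPKM in Wtap-BKO and from 8.55 to 10.1 FPKM in Wtap flox/flox libraries, with a change of 0.10 and a 95% interval of -0.18 to 0.38.

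Srebf2, the gene of SREBP2, read 6.14, 8.51 and 6.78 FPKM in Wtap-BKO, against 8.77, 8.94 and 9.29 FPKM in Wtap flox/flox libraries. The Wtap-BKO values were all lower, with a log2 change of -0.34 ± 0.14 and an adjusted p of 0.156 (limma). Without Wtap-BKO replicate 2 the change was -0.47 (adjusted p = 0.0639). Scap, the escort protein, had higher values in Wtap-BKO, with 8.12, 9.01 and 8.91 FPKM in Wtap-BKO, against 7.10, 7.44 and 6.43 FPKM in Wtap flox/flox libraries. Its groups did not overlap either, and its change of 0.31 ± 0.11 had an adjusted p of 0.109 (limma). For Scap, 13.2% of exon bases lie in a model on the other strand.

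Npc2 had the smallest adjusted p of the members. Its product binds cholesterol inside lysosomes and hands it on for export. It read 95.9, 151 and 125 FPKM in Wtap-BKO, against 67.5, 60.6 and 61.3 FPKM in Wtap flox/flox libraries. The 3 Wtap-BKO values were all above the control range, 1.96 times the control mean, with a log2 change of 0.95 ± 0.17 and an adjusted p of 0.0211 (limma). The log2 change stayed between 0.79 and 1.12 when any library was left out. The call was lost without Wtap-BKO replicate 3 (adjusted p = 0.067) or without Wtap flox/flox replicate 1 (0.0663), 2 (0.0798) or 3 (0.0627).

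Npc1, the membrane partner that takes cholesterol from NPC2, did not show that pattern. It read 8.02, 7.76 and 9.36 FPKM in Wtap-BKO, against 8.68, 9.60 and 7.97 FPKM in Wtap flox/flox libraries. The groups overlapped fully, and the 95% interval of its change was -0.35 to 0.22. Stard4, a carrier of cholesterol through the cytosol, ranged from 2.14 to 3.32 FPKM in Wtap-BKO and from 2.10 to 3.00 FPKM in Wtap flox/flox libraries. Soat1 ranged from 0.367 to 0.746 FPKM in Wtap-BKO and from 0.366 to 0.608 FPKM in Wtap flox/flox libraries, and neither was called.

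Of the LXR receptors, 1 was called. Nr1h3, the gene of LXR alpha, was significantly higher, with 37.4, 34.8 and 40.4 FPKM in Wtap-BKO, against 27.6, 27.6 and 26.1 FPKM in Wtap flox/flox libraries. Both groups were tight and did not overlap, with a log2 change of 0.46 ± 0.09 and an adjusted p of 0.0286 (limma). Leaving out a library kept the log2 change between 0.41 and 0.52. The call was lost without Wtap-BKO replicate 1 (adjusted p = 0.0507) or 3 (0.095), or without Wtap flox/flox replicate 1 (0.0924), 2 (0.101) or 3 (0.0773). Nr1h2, the gene of LXR beta, read 28.6, 26.9 and 24.1 FPKM in Wtap-BKO, against 37.6, 31.3 and 29.2 FPKM in Wtap flox/flox libraries. It was lower in each Wtap-BKO library, with a change of -0.30 and an adjusted p of 0.178 (limma).

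Of the LXR-driven export pumps, Abca1, which loads cholesterol on apolipoprotein A-I, read 19.0, 20.6 and 28.2 FPKM in Wtap-BKO, against 17.1, 15.1 and 14.1 FPKM in Wtap flox/flox libraries. All Wtap-BKO values were higher, with a log2 change of 0.53 ± 0.17, and the adjusted p of 0.0902 (limma) missed the threshold. Abcg1, which exports sterol to mature HDL, read 2.34, 2.50 and 1.83 FPKM in Wtap-BKO, against 2.35, 2.75 and 3.01 FPKM in Wtap flox/flox libraries. Its groups overlapped and its change was -0.28 with an interval of -0.68 to 0.12. Macrophages are known to use Npc2, Nr1h3 and Abca1. Of 14 macrophage markers 13 were tested, and none was at 0 in any library. All 13 had a change above 0, and 5 were called higher, beside 6.1% of all tested genes. Csf1r, a defining receptor, read 9.71, 8.83 and 9.52 FPKM in Wtap-BKO, against 5.05, 5.63 and 6.32 FPKM in Wtap flox/flox libraries. Within the Wtap-BKO group, replicate 2 had the lowest summed macrophage markers, the lowest Nr1h3 and the highest Npc2, and Abca1 was lowest in replicate 1, where the markers were highest. Markers of other cells went both ways. All 7 fibroblast and preadipocyte markers had a change above 0, and 1 was called higher. Their median was 0.74, beside 0.72 for the macrophage markers. Of 7 adipocyte markers, 5 had a change above 0 and 2 below, and 1 was called higher. Of 6 endothelial markers, 1 had a change above 0 and 5 below, and none was called. Of 6 T and B cell markers 2 were tested, each with a change below 0. Of these 1 was called lower, beside 3.88% of all tested genes. The part of macrophages or of these other cells in the results for Npc2, Nr1h3 and Abca1 was not tested.

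**Figure D4:**
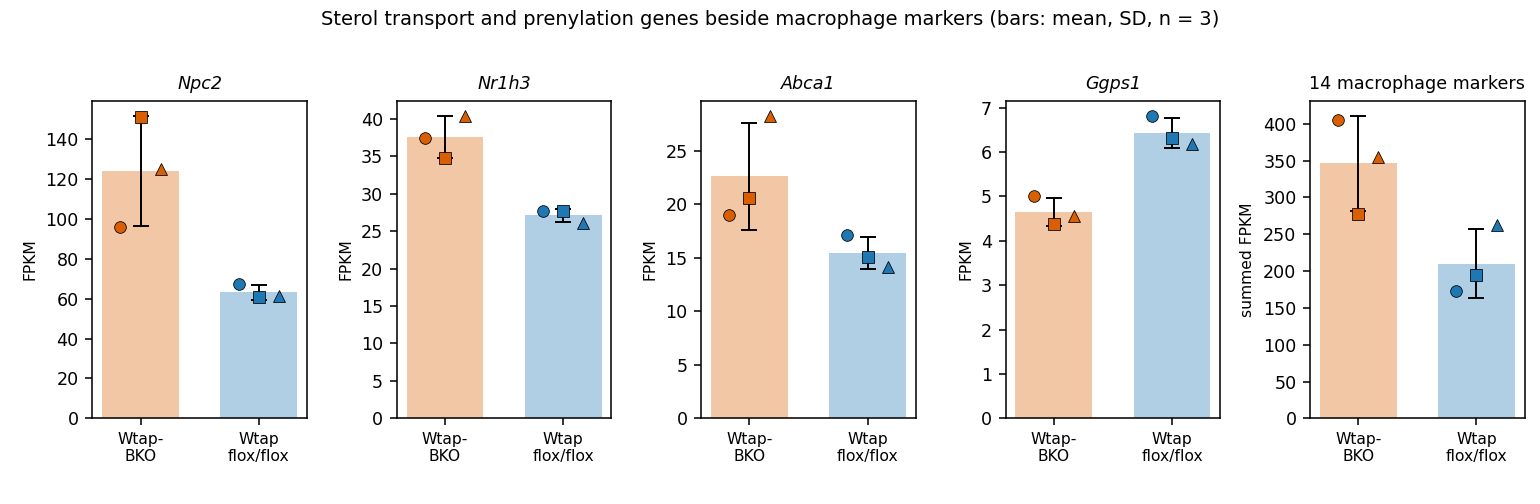
FPKM of Npc2, Nr1h3, Abca1 and Ggps1, and the summed FPKM of 14 macrophage markers, in 3 Wtap-BKO (left) and 3 Wtap flox/flox libraries (right), with bars at the mean, error bars for the SD and points for replicates 1 (circle), 2 (square) and 3 (triangle). The groups do not overlap in any of the 5 panels, and Ggps1 alone is lower in Wtap-BKO.

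No call of a member held without the pair of libraries with muscle transcripts. Without Wtap-BKO replicate 3 and Wtap flox/flox replicate 2, limma called 0 of the 13483 genes tested, while 2253 of them had an unadjusted p under 0.05. The fitted log2 changes were then 0.90 for Npc2, 0.42 for Nr1h3 and -0.46 for Ggps1, with adjusted p values of 0.201, 0.261 and 0.271. Leaving out Wtap-BKO replicate 1 gave 3 members called higher and 1 lower, and leaving out Wtap-BKO replicate 2 gave 2 and 0. Leaving out Wtap-BKO replicate 3 or any Wtap flox/flox replicate gave 0 and 0.

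Of 39 further genes of the pathway, 37 were tested, 5 were called higher and 3 lower, beside 6.1% and 3.88% of all tested genes. Their median log2 change was 0.19, and it was 0.02 without Wtap-BKO replicate 2, 0.08 without Wtap-BKO replicate 3 and 0.13 without Wtap-BKO replicate 1. Rxra, the partner with which LXRs bind DNA, read 22.7, 31.5 and 35.4 FPKM in Wtap-BKO, against 12.7, 12.6 and 14.1 FPKM in Wtap flox/flox libraries, a change of 1.156 ± 0.17 (adjusted p = 0.0124, limma). Its groups did not overlap. Its relative Rxrb had a change of -0.31 and was not called (adjusted p = 0.0821, limma).

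Also called higher were Rce1, a protease of prenylated proteins (0.66, adjusted p = 0.0363), Pltp, a plasma phospholipid carrier and LXR target (0.70, adjusted p = 0.0373), and Rnf145, a ubiquitin ligase of the endoplasmic reticulum (0.58, adjusted p = 0.0482), all by limma. Acat1, the mitochondrial thiolase, was lower, with 117, 121 and 111 FPKM in Wtap-BKO, against 226, 209 and 189 FPKM in Wtap flox/flox libraries. This enzyme of ketone and isoleucine breakdown had a change of -0.83 ± 0.11 (adjusted p = 0.0083, limma), while its cytosolic relative Acat2 had 0.29. Fntb, the beta subunit of farnesyltransferase, and Gramd1a, a carrier of sterol from the plasma membrane, were lower by limma with changes of -0.55 (adjusted p = 0.0303) and -0.39 (adjusted p = 0.0479). Acat1 was called in all 6 fits that left out 1 library, Rxra in 4, Rce1, Pltp and Rnf145 in 1 each, and Fntb and Gramd1a in none. The counts called higher and lower were 6 and 1 without Wtap-BKO replicate 1, 3 and 1 without replicate 2, and 2 and 2 without replicate 3. They were 1 and 1 without Wtap flox/flox replicate 1 or replicate 2, and 2 and 1 without replicate 3.

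By role, the 7 genes that tag sterol enzymes and receptors for breakdown all had a change above 0, with a median of 0.38. Of them 2 were called higher, beside 6.1% of all tested genes. Without Wtap-BKO replicate 2 or Wtap flox/flox replicate 3, 6 were above 0 and 1 below. Among 12 genes of sterol uptake and movement 5 were above 0 and 7 below, with a median of -0.24. That median was -0.09 without Wtap flox/flox replicate 1 and -0.15 without Wtap flox/flox replicate 2. Of these 12 genes 1 was called higher and 1 lower, beside 6.1% and 3.88% of all tested genes. The 9 users of isoprenoids, which make ubiquinone, dolichol and prenylated proteins, had 1 called higher and 1 lower, beside the same shares. Their median of 0.04 was -0.09 without Wtap flox/flox replicate 3. Srebf1, the gene of the paralog SREBP1, read 48.6, 96.1 and 123 FPKM in Wtap-BKO, against 86.0, 62.7 and 59.4 FPKM in Wtap flox/flox libraries. Its groups overlapped and it was not called (adjusted p = 0.629, limma).

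Acat2 lies beside the targeted gene, 6048 bases from Wtap on chromosome 17. Wtap spans bases 12966796 to 12994169 and Acat2 bases 12942890 to 12960747, both on the minus strand of GRCm38. Of the other tested neighbours, Sod2, mitochondrial superoxide dismutase, was called lower, with 43.8, 39.8 and 39.3 FPKM in Wtap-BKO, against 69.3, 65.5 and 60.2 FPKM in Wtap flox/flox libraries (log2 change -0.67 ± 0.10, adjusted p = 0.0126, limma). The call of Sod2 was lost without Wtap flox/flox replicate 1 (adjusted p = 0.0577) or 2 (0.0604). Tcp1, Mrpl18 and Pnldc1 had changes of -0.02, 0.01 and -0.35 and were not called. Wtap itself had a change of 0.56 ± 0.09 (adjusted p = 0.016, limma), beside 0.29 for Acat2. The Wtap call held without Wtap-BKO replicate 1 or 2 and was lost without any of the other 4 libraries (adjusted p of 0.0513 to 0.0673). A change from the edited locus and a change across the genome cannot be told apart for Acat2 in this design.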

How the data were processed

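RNA of iBAT was sequenced in 6 libraries, 3 Wtap-BKO and 3 Wtap flox/flox, grouped by the genotype label. Per the labels, the authors used HISAT2 2.0.5, featureCounts 1.5.0-p3 and DESeq2 1.16.1 with GRCm38.p6. The strand setting of the counting was not found in the labels or the methods. FPKM for 55703 genes were deposited by the authors. Each deposited FPKM value was a whole multiple of 1 read's worth (100% within 0.01), which gave reads per gene, and the values were already scaled between libraries by median-of-ratios factors.

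Genes that averaged 0.5 FPKM or more, and 10 reads or more, were analysed as log2(FPKM + 0.1), a scale that understates the change of low genes. A linear model with group as its term was fitted with limma 3.58.1 (R 4.3.3) with an intensity trend, two-sided, and a gene was called at a Benjamini-Hochberg adjusted p under 0.05 over all 13507 tested genes. The steps were tested on simulated data. The study calls its replicates biological, the labels name no animals, so a p-value reflects only how far these 6 libraries spread. No pair of libraries of the same group agreed within sampling noise. The members and all lists were chosen with earlier results of these data known. Values are given per library for called members and for uncalled ones of high level or central role, and the rest by range. Of the further genes those called are named, except 1 that is not reported here, with a few chosen after their values were seen. Shared exon bases and 50-base stretches come from GENCODE M21, and promoter windows from RefSeq. Figures were drawn with matplotlib 3.10.9. Alternatives were another pseudocount, filter, scaling, variance model, gene set, replicate block, and omitted libraries.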

Additional observations from a re-analysis of the deposited data

How the results depend on the processing

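Over 18 alternatives, 537 log2 changes of single members were recomputed: 502 kept their direction and side of the threshold, 22 lost a call, 4 gained a call and 9 changed sign, in 6 members. The median log2 change of the tested members stayed positive in all 18, from 0.14 without Wtap-BKO replicate 2 to 0.50 without Wtap-BKO replicate 1. Members called higher (2) became 4 with library size alone, where Mvk and Tm7sf2 joined, and 0 without both libraries with muscle transcripts. Members called lower (1) became 0 with no filter on low values, with library size alone and without both libraries with muscle transcripts. Leaving out 1 library gave 0 to 3 members called higher, 0 to 1 lower, 1 to 6 further genes called higher and 1 to 2 lower. Changes of sign were Cyp51 with upper-quartile factors (-0.026) and on leaving out 1 library (-0.36 to 0.37), Npc1 with library size alone (0.021) and on leaving out 1 library (-0.144 to 0.0054), and, on leaving out 1 library, Dhcr7 (-0.017 to 0.69), Idi1 (-0.25 to 0.50), Lss (-0.15 to 0.56) and Stard4 (-0.090 to 0.26). The cause was not tested. The share of called genes that were higher was 61.1%, against 78.2% with library size alone and 50.2% with upper-quartile factors, and the median of all genes was then 0.08 and -0.06. The total of called genes was 824 higher and 524 lower, against 442 and 245 with no filter on low values, 1115 and 310 with library size alone, 219 to 849 and 88 to 428 on leaving out 1 library, and 0 without both libraries with muscle transcripts. With the replicate block, members called numbered 0 higher and 0 lower, and all genes 211 and 97. Same-numbered libraries correlated at -0.05, -0.40 and -0.27 in their deviations from the group means. The highest correlations were 0.56 for Wtap-BKO replicate 3 with Wtap flox/flox replicate 2, the libraries with muscle transcripts, and 0.46 for Wtap-BKO replicate 2 with Wtap flox/flox replicate 1. With 3 libraries a group and shared patterns of this kind, these values cannot decide whether libraries were paired. Fdps, at 7 to 35 reads, and Soat1, at 62 to 139, rest on few reads. For Fdps the part of the overlap with Gm43738 in that count was not tested.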
